A study of Drosophila melanogaster with 12 samples.

Results

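Piwi-bound small RNAs from genes responded differently to the Armi variant KEE and to the Daed variant deltaSAM in the ovarian somatic cell (OSC) line of Drosophila, and the values below are the difference between both responses, gene by gene. The KEE effect was Armi KEE minus Armi WT, the deltaSAM effect was Daed deltaSAM minus Daed WT, and the quantity compared was the KEE effect minus the deltaSAM effect. All 12 libraries of the series entered 1 fit, in 4 groups of 3, and 4279 of 17469 genes passed the filter of at least 10 RPM (reads scaled to a common library size) in at least 3 libraries. Per the labels, the Daed groups were OSCs in which Daed was knocked down by siRNA and Flag-tagged Daed was supplied from a plasmid, either wild-type (Daed WT) or without its SAM domain (Daed deltaSAM). The Armi groups were OSCs in which Armi was knocked down and Flag-tagged Armi was supplied, either wild-type (Armi WT) or in a form called KEE in the labels, which do not spell out these letters. All groups were grown at 26 °C, received siRNA, then plasmid with siRNA after 48 h, and were harvested after a further 48 h. Piwi was immunoprecipitated, and its RNAs of 20 to 40 nt were sequenced after depletion of ribosomal RNA. No group without a rescue plasmid was among the 12 libraries, all cells came from 1 cell line, and nothing states that replicates were separate cultures, so every p measures only the spread between these libraries.

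PIWI-interacting RNAs (piRNAs) guide Piwi to transposons in the nucleus of ovarian somatic cells. They are cut from long single-stranded precursors, both from transposon-rich clusters such as flam and from messenger RNAs such as that of tj. Armi is an RNA helicase that binds precursors in Yb bodies and carries them to the outer membrane of mitochondria, where the nuclease Zuc cuts them. Daed is a protein of that membrane that, together with Gasz, holds Armi at the mitochondrial surface, and a SAM domain is a fold through which proteins bind each other. Small RNAs assigned to a gene are a readout of how much of its transcript was turned into piRNA and bound by Piwi, and not of how much messenger RNA or protein the gene made.

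The Daed libraries held 1396369 to 1961721 reads with WT and 1701393 to 1836515 with deltaSAM, and the Armi libraries 2335292 to 3828687 with WT and 3697324 to 3995009 with KEE. The deepest library was a KEE library and the shallowest a Daed WT library, so low genes were measured more finely with KEE. RPM is a part of a library, and in bulk libraries fewer cells and less small RNA per cell cannot be told apart. The median tested gene moved by 0.49 on the log2 scale between Armi WT and KEE and by 0.03 between Daed WT and deltaSAM. Each library was therefore centred on its median tested gene, and every log2 effect is relative to that gene unless named uncentred. The centring lowered every difference by 0.46. Replicate 3 of Daed deltaSAM and replicate 3 of Armi WT stood apart from their own replicates, with a mean chi-square per gene of 4.94 to 5.93 against 1.22 to 2.18 for all other replicate pairs. The Armi WT and Daed WT groups differed from each other at 1991 genes (46.5% of those tested), of which 1206 (28.2%) were higher in Armi WT and 785 (18.3%) lower. Knocked-down gene, plasmid and depth changed together between the experiments, so what sets these WT groups apart cannot be told apart.

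The effects differed at most tested genes. The KEE effect lay above the deltaSAM effect at 1243 genes, 29.0% of those tested, and below it at 1317 genes, 30.8% (limma, Benjamini-Hochberg adjusted p under 0.05 over all tested genes). The difference reached 1 on the log2 scale, a doubling of the fold between variant and WT, at 647 of the higher and 799 of the lower genes. Its median over all tested genes was 0.02, and its standard error was 0.23 at the median gene. At unadjusted p under 0.05 the counts were 1334 and 1407. The remaining 1719 genes were not called, and only at 217 of them did the 95% interval lie within 0.5 of zero, so most of the uncalled genes were not shown to respond alike. Without replicate 3 of Daed deltaSAM and of Armi WT the counts were 1294 higher and 1355 lower. On RPM as deposited, without centring, they were 2010 higher and 866 lower, and 1089 higher and 862 lower genes kept their call under all 6 scalings tried. The split between higher and lower therefore depended on the scaling, from 48.6% higher with centring to 64.7% with the gene-table total and 69.9% with uncentred RPM.

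**Figure D1:**
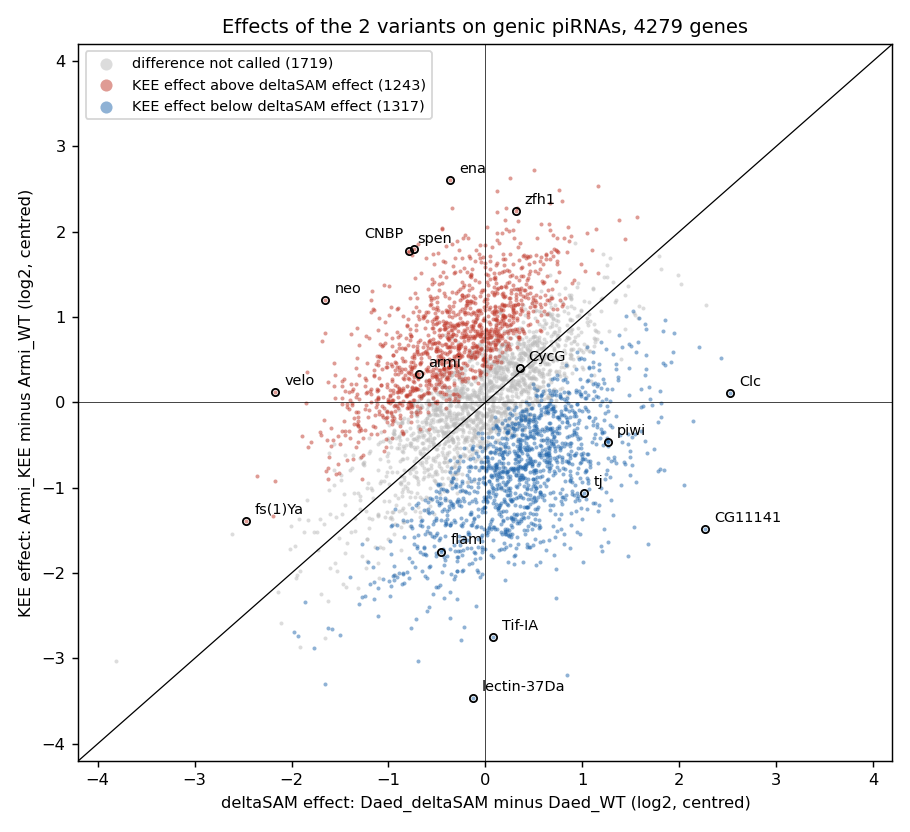
Effect of KEE (vertical, log2, centred) against effect of deltaSAM (horizontal, log2, centred) at 4279 genes, 1 point a gene, with the line where both are equal. The 1243 genes in red lie above the line and the 1317 in blue below it, past an adjusted p of 0.05, while 1719 grey genes were not called, and circles mark 16 genes described in the text.

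Within single experiments and with centring, KEE raised 1358 genes (31.7%) and lowered 1442 (33.7%), and deltaSAM raised 1264 (29.5%) and lowered 1145 (26.8%). On uncentred RPM KEE raised 2287 and lowered 814, and deltaSAM raised 1339 and lowered 1080. With the gene-table total the counts were 1666 and 1180 with KEE and 901 and 1540 with deltaSAM. The balance of rises and falls thus depended on the scaling. With centring, opposite responses made up 698 of the called differences, 229 with KEE up and deltaSAM down and 469 with KEE down and deltaSAM up. A larger number, 1399, moved past the threshold in 1 experiment and not in the other, 505 up and 380 down with KEE and 220 up and 294 down with deltaSAM. At 411 genes both variants moved the gene the same way but by unequal amounts, and at 52 genes only the difference itself was called. The opposite classes also differed between the WT groups. Armi WT was called below Daed WT at 96 and above it at 31 of the 229 genes. Of the 469 genes it was called above at 255 and below at 35. Over all tested genes it was above at 28.2% and below at 18.3%. The part of this gap in the opposite classes was not tested. On centred values KEE was the larger effect in size at 66.0% of the higher and 65.0% of the lower genes, and on uncentred RPM at 79.7% and 47.5%. Among the higher genes KEE was the group with the highest centred level at 894 and deltaSAM the group with the lowest at 637, against 1142 and 701 by mean RPM. Among the lower genes KEE was lowest at 927 and deltaSAM highest at 650 on centred levels, but at 543 and 499 by mean RPM, and at 251 of them KEE had the highest mean RPM.

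**Figure D2:**
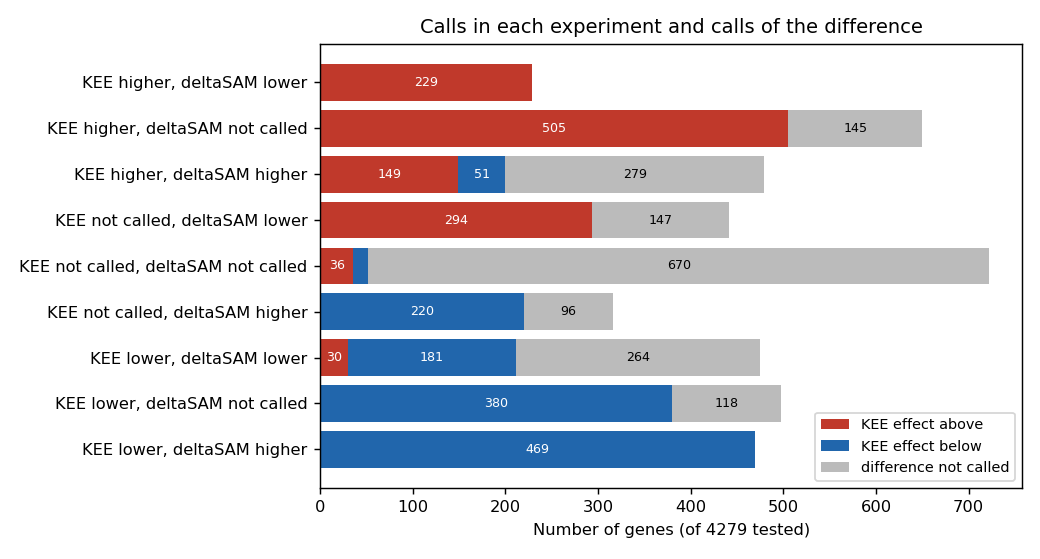
Number of genes (horizontal) in each of 9 combinations of calls, with bars split by the call of the difference itself. Opposite responses fill the top bar (229 genes) and the bottom bar (469 genes), and 670 genes were called in neither experiment nor for the difference.

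Genes that KEE raised and deltaSAM lowered were led by neo, spen and ImpL2, among genes of at least 50 RPM in their highest group, a limit that holds for all leading genes below. The gene neo (neyo, dm6 3R:29819131-29825800), which encodes a protein of the apical extracellular matrix, gave 118, 96.02 and 104.6 RPM with Daed WT, 29.4, 36.5 and 35.9 with deltaSAM, 53.3, 56.1 and 81.4 with Armi WT and 210.02, 199 and 201 with KEE. Its KEE libraries lay above all others and its deltaSAM libraries below all others, and the difference was 2.85 ± 0.20 (log2 ± SE, adjusted p = 4.3e-11). The gene spen (2L:159032-203397), for an RNA-binding regulator of transcription, gave 420.04, 404 and 389.6 RPM with Daed WT, 258, 250.5 and 209 with deltaSAM, 389, 356 and 379 with Armi WT and 1814, 1749 and 1852 with KEE. Neither variant overlapped its own WT group, and most of the difference of 2.57 ± 0.11 came from the KEE effect of 1.78, against a deltaSAM effect of -0.79. The gene ImpL2 (3L:4224006-4236147), for a secreted antagonist of insulin-like peptides, gave 23.4, 24.8 and 18.6 RPM with Daed WT, 12.3, 15.2 and 10.49 with deltaSAM, 19.3, 16.3 and 17.7 with Armi WT and 91.9, 91.4 and 81.1 with KEE. Its WT groups overlapped each other while the variants stood on either side of them, and its difference was 2.56 ± 0.23 (adjusted p = 2.1e-09). The RNA granule genes CNBP and rin and the actin gene Act5C belonged to the same class and are described with their lists.

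**Figure D3:**
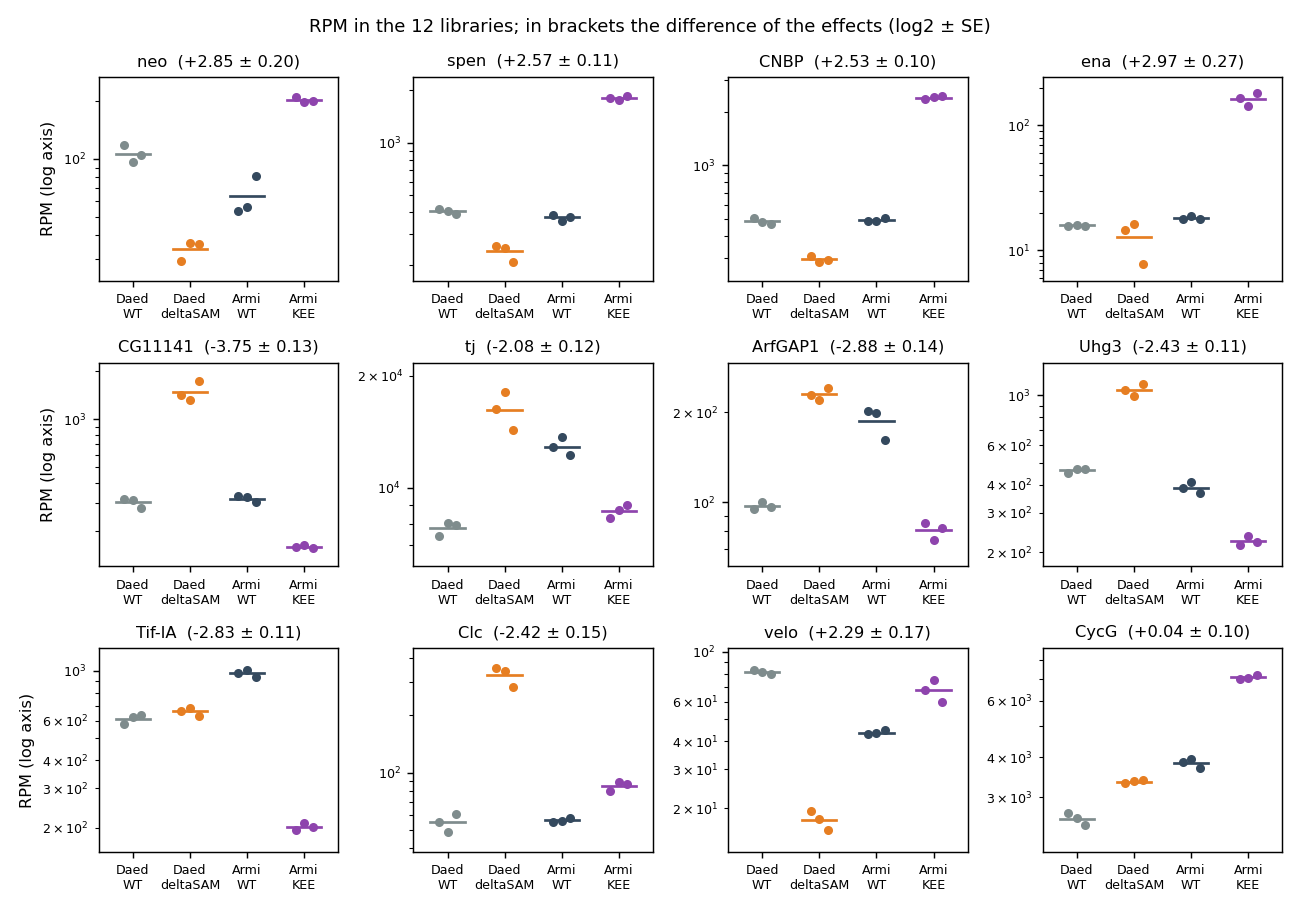
RPM (log axis) of 12 genes in the 12 libraries, 1 point a library and 1 line for each group mean, with the difference of the effects (log2 ± SE) above each panel. KEE libraries lie above all others for neo, spen, CNBP and ena, deltaSAM libraries lie above all others for CG11141, tj, ArfGAP1, Uhg3 and Clc and below all others for velo, and for CycG both variants lie above their own WT by similar folds.

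Of the genes raised past the threshold by KEE only, the 3 with the largest difference were ena, lolal and Cam. The gene ena (2R:19141632-19163705), for an actin elongation factor at cell edges, gave 18.02, 18.8 and 17.7 RPM with Armi WT against 166, 143 and 181 with KEE, and 15.8, 16 and 15.8 with Daed WT against 14.7, 16.3 and 7.73 with deltaSAM. Its 3 KEE libraries stood far above the other 9, which spanned a narrow range apart from a low replicate 3 of deltaSAM, and its difference was 2.97 ± 0.27 (adjusted p = 2.9e-09). The gene lolal (2R:18154095-18158192), for a BTB-domain chromatin protein, gave 97.4, 103 and 61.4 RPM with Armi WT against 566, 608 and 581 with KEE, and 61.7, 54.1 and 46.5 with Daed WT against 52.3, 59.4 and 25.4 with deltaSAM. Replicate 3 of both Armi WT and deltaSAM was low for lolal, and the difference of 2.63 ± 0.29 was 2.04 without these libraries. Calmodulin, the calcium sensor encoded by Cam (2R:12259398-12278809), gave 114, 99.8 and 122 RPM with Armi WT against 962, 921 and 1036 with KEE, and 57.6, 46.4 and 58.7 with Daed WT against 59.4, 66.97 and 71.2 with deltaSAM. KEE lay above all other libraries, and the difference was 2.38 ± 0.16 (adjusted p = 4.3e-11).

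Where both variants raised a gene, a larger KEE effect was found at 149 genes and a larger deltaSAM effect at 51. In the former direction HIP-R (X:3789969-3792477), for a co-chaperone of Hsc70, gave 10.2, 11.6 and 13.6 RPM with Daed WT, 16.5, 15.2 and 20.98 with deltaSAM, 15.9, 14.6 and 16.95 with Armi WT and 155, 153 and 155 with KEE. The KEE libraries lay about an order of magnitude above the rest, and the difference was 2.22 ± 0.23 (adjusted p = 2.5e-08). The gene zfh1 (3R:30765926-30789202), for a zinc finger homeodomain factor of somatic gonad cells, gave 389, 399 and 405 RPM with Daed WT, 545, 554 and 425 with deltaSAM, 501, 541 and 479.9 with Armi WT and 3417, 3299.7 and 3359 with KEE. Its deltaSAM effect was 0.31 against a KEE effect of 2.24, a difference of 1.93 ± 0.12. The third gene, CG3198, had a difference of 1.78 ± 0.19, with means of 27.9 to 36.2 RPM with deltaSAM and 33.01 to 206 RPM with KEE. In the other direction Cda5 (2L:25402-65404), for a chitin deacetylase, gave 2.04, 4.41 and 5.73 RPM with Daed WT, 18.8, 29.4 and 29.8 with deltaSAM, 76.3, 77.9 and 87.4 with Armi WT and 177, 152 and 158 with KEE. Both variants lay above their own WT, but Armi WT already lay above every Daed library, with a gap between the WT groups of 3.93, and the difference was -1.92 ± 0.32, or -0.79 with a pseudocount of 10. The helicase gene Pif1 had a difference of -1.55 ± 0.27 and PrBP, for a prenyl-binding protein, -1.43 ± 0.25. With deltaSAM the means went from 21.5 to 108 RPM for Pif1 and from 9.404 to 40.1 RPM for PrBP.

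A fall with deltaSAM and no call with KEE was found at 294 genes, led by velo, zormin and CG3356. The gene velo (3L:6744426-6752752), for a SUMO protease, gave 83.1, 81.7 and 79.5 RPM with Daed WT, 19.4, 17.97 and 16.01 with deltaSAM, 42.8, 43.2 and 44.8 with Armi WT and 67.7, 75.2 and 59.6 with KEE. The deltaSAM libraries lay below all others, and Armi WT lay below KEE on RPM, although the centred KEE effect of 0.12 was not called (adjusted p = 0.38). Its difference was 2.29 ± 0.17 (adjusted p = 1.4e-10). The gene zormin (3L:2117466-2151700), for an immunoglobulin-domain protein known from muscle sarcomeres, gave 111, 111 and 107 RPM with Daed WT, 35.3, 40.3 and 32.03 with deltaSAM, 83.1, 67.2 and 81.4 with Armi WT and 121, 133 and 129 with KEE. The deltaSAM libraries were again the lowest, and the difference was 1.86 ± 0.16. The gene CG3356 followed with 1.62 ± 0.21 and means of 32.1 to 12.7 RPM with deltaSAM and 34.1 to 60.1 RPM with KEE.

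At 30 genes both variants lowered the gene and deltaSAM lowered it more. The gene fs(1)Ya (X:2724286-2726577), for a nuclear envelope protein of the egg and early embryo, gave 113, 124 and 119 RPM with Daed WT, 23.5, 22.3 and 17.7 with deltaSAM, 39.7, 41.5 and 59.1 with Armi WT and 26.3, 23.5 and 22.8 with KEE. Daed WT was far above the other groups, KEE and deltaSAM overlapped, and the difference was 1.08 ± 0.21 (adjusted p = 0.00012). The ribosomal protein gene RpL4 (3R:27922821-27924888) gave 165, 162 and 178 RPM with Daed WT, 49.96, 50.6 and 63.5 with deltaSAM, 122, 121 and 144 with Armi WT and 142, 130.4 and 129 with KEE. Its Armi groups overlapped on RPM, its centred KEE effect of -0.44 was 0.05 uncentred, and its difference was 1.20 ± 0.16. The gene DIP1, for a double-stranded RNA-binding protein, had a difference of 1.04 ± 0.14, with a centred KEE effect of -0.27 that was 0.22 uncentred.

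The largest called class below the line held 469 genes that KEE lowered and deltaSAM raised. The gene CG11141 (2R:7459685-7463395) gave 318, 313 and 277 RPM with Daed WT, 1414, 1327 and 1749 with deltaSAM, 329, 325 and 303 with Armi WT and 158, 163 and 156 with KEE. Its WT groups overlapped, deltaSAM lay above and KEE below every WT library, and the difference was -3.75 ± 0.13 (adjusted p = 4.1e-15). The gene CG17019 (2R:12930912-12934045) showed the same order with 36.2, 43.6 and 42.3 RPM with Daed WT, 102, 116 and 134 with deltaSAM, 49.6, 38.5 and 49.7 with Armi WT and 19.4, 16.5 and 17.8 with KEE, a difference of -3.27 ± 0.21. The gene CG17198 (3R:25773334-25775369) gave 28.5, 27.6 and 22.9 RPM with Daed WT, 80.5, 91.5 and 92.2 with deltaSAM, 76.5, 75.4 and 53.9 with Armi WT and 29.2, 30.8 and 28.3 with KEE. Here KEE overlapped Daed WT, and Armi WT lay above Daed WT by 1.18, and the difference was -3.34 ± 0.20. Its span overlaps 2 other annotated genes, and the strand setting of the counting is not given in the sources used here, so reads of such genes cannot be told apart. When RPM was left uncentred, the opposite classes counted 449 genes with KEE up and 256 with KEE down, against 229 and 469.

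Of the 380 genes that KEE lowered without a deltaSAM call, lectin-37Da, Tif-IA and the antisense RNA asRNA:CR45137 had the largest differences. The gene lectin-37Da (2L:19418317-19419029), for a C-type lectin, gave 109, 122 and 85.5 RPM with Armi WT against 13.8, 14.1 and 9.76 with KEE, and 78.5, 80.6 and 73.8 with Daed WT against 78.8, 72.4 and 66.3 with deltaSAM. KEE lay below all other libraries while the Daed groups overlapped, and the difference was -3.33 ± 0.20 (adjusted p = 6.4e-12). The gene Tif-IA (2L:22249876-22258260), for an initiation factor of RNA polymerase I, gave 978, 1009.7 and 941 RPM with Armi WT against 195, 209 and 202 with KEE, and 581, 622 and 635 with Daed WT against 662, 683 and 632 with deltaSAM. The KEE libraries were the lowest and Armi WT the highest, and the difference was -2.83 ± 0.11 (adjusted p = 8.7e-15). For asRNA:CR45137 (2R:12783611-12799259), which overlaps another annotated gene, the means were 59.7 to 51.1 RPM with deltaSAM and 81.1 to 15.6 RPM with KEE, a difference of -2.54 ± 0.20.

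Both variants lowered a further 181 genes, with KEE lowering them more. The gene galectin (2L:71757-76211), for a sugar-binding lectin, gave 466, 498 and 469.8 RPM with Daed WT, 442, 432 and 380.5 with deltaSAM, 813, 796 and 789 with Armi WT and 183, 198 and 162 with KEE. All 4 groups were separate, with KEE lowest and Armi WT highest, and the difference was -2.40 ± 0.11 (adjusted p = 2.3e-13). The gene Sur (2L:10182557-10199117), for a sulfonylurea receptor of the ABC transporter family, gave 80.5, 62.9 and 70.2 RPM with Daed WT, 39.4, 47.4 and 39.8 with deltaSAM, 127, 128 and 145 with Armi WT and 28.9, 28.1 and 30.04 with KEE. Its groups were separate in the same order, and the difference was -1.88 ± 0.17. The gene CG32280 had a difference of -2.15 ± 0.18, with means of 167 to 130.4 RPM with deltaSAM and 280.4 to 67.1 RPM with KEE.

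A rise with deltaSAM and no call with KEE was found at 220 genes. The gene Clc (3L:20241053-20243735), for clathrin light chain, gave 55.1, 48.6 and 60.2 RPM with Daed WT, 356, 342 and 282 with deltaSAM, 54.6, 55.7 and 57.6 with Armi WT and 79.7, 88.98 and 87.1 with KEE. The deltaSAM libraries lay above all others, and the deltaSAM effect of 2.53 stood against a KEE effect of 0.11 (adjusted p of the difference = 1.5e-11). The gene Ipp (3R:13958789-13960474), for an inositol polyphosphate phosphatase, gave 17.8, 9.93 and 13.6 RPM with Daed WT, 47.02, 42.5 and 60.7 with deltaSAM, 10.97, 14.1 and 15.8 with Armi WT and 15.9, 18.7 and 14.8 with KEE. Its other 3 groups overlapped, and the difference was -2.002 ± 0.29. For Kaz the difference was -1.67 ± 0.18, but Armi WT lay above Daed WT by 1.29, and deltaSAM, Armi WT and KEE overlapped in part on RPM.

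At 36 higher and 16 lower genes the difference was called although neither effect was. The leading ones were small differences between opposite moves. The gene dpy, for a giant protein of the apical matrix, had 0.70 ± 0.25, Nacalpha, for a subunit of the nascent polypeptide-associated complex, 0.55 ± 0.20, and CG8306 0.53 ± 0.22. In the other direction IntS3, for an Integrator subunit, had -0.60 ± 0.23, put, for a type II receptor of activins and BMPs, -0.52 ± 0.21, and CG12299 -0.50 ± 0.18. All 6 adjusted p lay between 0.018 and 0.044. On uncentred RPM the differences of IntS3, put and CG12299 were -0.14, -0.06 and -0.05 and were not called.

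Some abundant genes responded to both variants by like amounts. Of 954 genes called the same way in both experiments, 131 had a 95% interval of the difference within 0.5 of zero, 81 of them up and 50 down. The most abundant was CycG (3R:31596642-31612664), for an atypical cyclin, with 2675, 2582 and 2462 RPM with Daed WT, 3319.6, 3363 and 3391 with deltaSAM, 3862, 3939.98 and 3709 with Armi WT and 7024, 7037 and 7195 with KEE. Each variant lay above its own WT, and the difference was 0.04 ± 0.10, with an interval of -0.16 to 0.25. The gene crol, for a zinc finger factor, fell with both and had a difference of -0.23 ± 0.11 (interval -0.46 to 0.01). The genes Rap1, for a small GTPase, and sqd, for a nuclear RNA-binding protein, rose with both, with differences of 0.26 ± 0.10 and 0.26 ± 0.11. Rap1 passed the threshold at an adjusted p of 0.035 despite its interval of 0.05 to 0.48. SERCA, the calcium pump of the endoplasmic reticulum, had 0.08 ± 0.11 and Syp, an RNA-binding protein, -0.03 ± 0.11. This likeness held only relative to the median gene. On uncentred RPM the differences were 0.50 for CycG, 0.53 for SERCA and 0.43 for Syp, all called.

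The best known piRNA sources of these cells fell further, or in another direction, with KEE. The flam locus (X:21631891-21790731), the main transposon-derived cluster of the ovarian soma and annotated as a long noncoding RNA, gave 25114, 28387 and 28211 RPM with Daed WT, 19943, 19746 and 21118 with deltaSAM, 21052, 20733 and 20769.7 with Armi WT and 8921, 8991 and 8195 with KEE. Both variants lay below their own WT, and the difference was -1.29 ± 0.12 (adjusted p = 2.5e-09), or -0.55 under quantile normalization. The messenger RNA of tj (2L:19464267-19467758), for the Maf factor Traffic jam, gave 7401, 8022 and 7949 RPM with Daed WT, 16342, 18054 and 14290.3 with deltaSAM, 12839, 13673 and 12219 with Armi WT and 8294, 8710.4 and 9002 with KEE. Daed WT and KEE were the lower groups and Armi WT and deltaSAM the higher ones, with no overlap, and the difference was -2.08 ± 0.12 (adjusted p = 4.8e-12). Under quantile normalization, which ties the highest ranks of all libraries to each other, the tj difference was -0.16 and not called. The polarity gene l(2)gl, also among the most abundant, was lower at -2.29 ± 0.13 on means of 5780.4 to 12824 RPM with deltaSAM and 6171 to 3812 RPM with KEE.

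Of 12 tested biogenesis factors of the soma, 2 were called higher and 7 lower, against 29.0% and 30.8% of all tested genes, and their median difference was -0.76 against 0.02. The counts were 3 and 4 on uncentred RPM and 2 and 4 with the gene-table total, so how far this list leaned depended on the scaling. The gene piwi (2L:10982205-10987420) gave 211, 201 and 203 RPM with Daed WT, 480.2, 485 and 549.99 with deltaSAM, 520.02, 576 and 444 with Armi WT and 513, 518 and 522 with KEE. It rose with deltaSAM, while Armi WT, KEE and deltaSAM overlapped on RPM. Its centred KEE effect of -0.47 was 0.02 uncentred, and the difference was -1.73 ± 0.13 (adjusted p = 2.2e-10). The gene fs(1)Yb (X:2720468-2724158), for the Yb protein that builds Yb bodies, gave 128, 121 and 114 RPM with Daed WT, 104.6, 89.3 and 83.9 with deltaSAM, 87.8, 90.8 and 88.9 with Armi WT and 36.4, 36.2 and 30.04 with KEE. It fell with both variants and further with KEE, a difference of -1.43 ± 0.15. The targeted gene armi (3L:3461317-3466314) gave 267, 290.3 and 310.1 RPM with Daed WT, 192, 199.8 and 161 with deltaSAM, 864, 857 and 913 with Armi WT and 1548, 1582 and 1529.7 with KEE. It was higher with KEE and lower with deltaSAM than in the matching WT, a difference of 1.02 ± 0.12 (adjusted p = 2.1e-07), and reads from the rescue plasmid could not be told from those of the endogenous gene. The targeted gene daed (2L:2214972-2216311) gave 32.1, 27.6 and 31.5 RPM with Daed WT, 32.3, 28.9 and 29.8 with deltaSAM, 2.61, 4.71 and 3.01 with Armi WT and 4.25, 6.76 and 6.01 with KEE. It was higher in all Daed libraries than in all Armi libraries, and its difference of 0.14 ± 0.31 was not called (adjusted p = 0.71, interval -0.50 to 0.78). The gene zuc did not pass the filter, with 0.51 to 4.901 RPM over the 12 libraries.

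Other small RNA and silencing genes were called in both directions. For this list and those that follow, the counts called on uncentred RPM are given after those called with centring. Over all 4279 tested genes, 1243 were higher and 1317 lower with centring (29.0% and 30.8%), or 2010 and 866 uncentred. Uncentred counts of a list are to be read against the uncentred counts of all genes. Of the Piwi nuclear silencing factors 3 of 10 were higher and 3 lower (median 0.23), or 5 and 2 uncentred, the lower ones including ova, which links Piwi to heterochromatin, at -1.49 ± 0.19 and nxf2, an RNA-binding partner of Panoramix, at -1.11 ± 0.24. Of the siRNA and microRNA machinery 1 of 11 were higher and 5 lower (median -0.32), or 4 and 3 uncentred, with gw, for GW182, at -1.27 ± 0.14 and mei-P26, for a TRIM-NHL protein, at -0.98 ± 0.13. The median of the siRNA and microRNA list was 0.13 on uncentred RPM.

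Genes of stress signalling and protein folding were more often higher. Of the JNK pathway genes 8 of 12 were higher and 1 lower (median 1.22), or 10 and 1 uncentred. The stress-response factor gene Atf3 (X:1242740-1275284) gave 116, 113 and 113 RPM with Daed WT, 94.04, 80.6 and 81.2 with deltaSAM, 179.7, 177 and 177 with Armi WT and 689, 620.2 and 678 with KEE. KEE lay above and deltaSAM below all other libraries, and the difference was 1.85 ± 0.12. The gene puc, for the phosphatase that limits JNK, had 1.72 ± 0.20. Of the heat shock and chaperone genes 9 of 12 were higher and 2 lower (median 1.07), or 9 and 1 uncentred. The co-chaperone gene Stip1 (2L:295122-297449) gave 48.4, 54.6 and 56.6 RPM with Daed WT, 78.2, 61.5 and 51.9 with deltaSAM, 56.7, 52.2 and 48.6 with Armi WT and 361, 366 and 358 with KEE. Its KEE libraries were the highest, and the difference was 2.07 ± 0.17, while Hsc70-4, for the constitutive Hsp70 of the cytosol, had 1.28 ± 0.12. Of the proteasome subunit genes 10 of 22 were higher and 0 lower (median 0.73), or 21 and 0 uncentred, including Prosalpha7 at 1.099 ± 0.30, or 0.59 with a pseudocount of 10, and Rpt1 at 0.96 ± 0.23. With centring, 11 proteasome members were lower and 0 higher with deltaSAM, against 7 higher and 1 lower with KEE. Summed over the 48 listed proteasome genes, the level was 383 to 419 RPM with Daed WT, 291 to 309 with deltaSAM, 308 to 377 with Armi WT and 527 to 577 with KEE.

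Genes that act on RNA and translation were also more often higher. Of the mRNA decay and RNA granule genes 12 of 21 were higher and 3 lower (median 0.42), or 14 and 3 uncentred. The gene CNBP (2R:22934569-22937077), for a zinc finger protein that binds nucleic acids, gave 505, 482 and 464 RPM with Daed WT, 309, 288 and 294 with deltaSAM, 482, 486 and 505 with Armi WT and 2347, 2401 and 2438 with KEE. The WT groups overlapped, KEE lay above and deltaSAM below them, and the difference was 2.53 ± 0.10 (adjusted p = 8.7e-15). The gene rin (3R:13647004-13654527), for the stress granule protein G3BP, gave 84.1, 82.2 and 88.8 RPM with Daed WT, 53.5, 56.6 and 50.2 with deltaSAM, 114, 116 and 109 with Armi WT and 552, 588 and 594 with KEE. KEE lay above and deltaSAM below all WT libraries, with a difference of 2.55 ± 0.13. Of the translation factors 16 of 35 were higher and 3 lower (median 0.51), or 25 and 2 uncentred, with eIF4H1 at 1.39 ± 0.14 and eIF4G2, an eIF4G paralog, at -1.34 ± 0.13. Of the cytosolic ribosomal protein genes 28 of 78 were higher and 9 lower (median 0.27), or 50 and 6 uncentred, so whether most members were called depended on the scaling. With centring, their share of higher calls was not far from the 29.0% of all tested genes. With centring, 27 were lower with deltaSAM and 13 higher, against 16 and 16 with KEE, and sta, for the ribosomal protein SA, had 1.21 ± 0.17.

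Nuclear genes followed. Of the chromatin regulators 12 of 21 were higher and 3 lower (median 0.60), or 14 and 3 uncentred, with Bicra, for a subunit of a SWI/SNF complex, at 1.94 ± 0.10 and E(bx), for the large NURF subunit, at -1.12 ± 0.12. Of the follicle and somatic cell transcription factors 8 of 13 were higher and 2 lower (median 0.67), or 11 and 2 uncentred, zfh1 and tj being the leading members in opposite directions. Of the nucleoporin genes 5 of 13 were higher and 1 lower (median 0.55), or 9 and 0 uncentred. Their leading pair reached a like difference by different routes, since Nup153 went from 45.97 to 49 RPM with deltaSAM and 53.2 to 238 RPM with KEE (difference 1.61 ± 0.17) and Nup358 from 100.1 to 35.9 RPM with deltaSAM and 79.8 to 111 RPM with KEE (1.46 ± 0.17). Of the cell cycle genes 11 of 22 were higher and 6 lower (median 0.55), or 13 and 6 uncentred, with E2f1 at 1.84 ± 0.13 and Cdk4 at -2.12 ± 0.18. The span of E2f1 overlaps 5 other annotated genes.

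The cytoskeleton and surface lists held large differences in both directions. Of the actin and actomyosin genes 11 of 26 were higher and 7 lower (median 0.22), or 15 and 4 uncentred. The cytoplasmic actin gene Act5C (X:5900861-5905399) gave 265, 244 and 266 RPM with Daed WT, 198, 207 and 159.6 with deltaSAM, 196, 205.1 and 232 with Armi WT and 954, 1053 and 986 with KEE. KEE lay above all other libraries, deltaSAM overlapped Armi WT, and the difference was 2.24 ± 0.13. Arp3, for a subunit of the Arp2/3 complex, went from 522 to 965 RPM with deltaSAM and 804 to 693 RPM with KEE, a difference of -1.55 ± 0.11. Of the clathrin and endocytosis genes 5 of 19 were higher and 6 lower (median -0.04), or 9 and 6 uncentred. The gene ArfGAP1 (3L:12415026-12417580), for a regulator of coated vesicles, gave 95.3, 100.4 and 96.7 RPM with Daed WT, 229, 219.98 and 240.2 with deltaSAM, 202, 198 and 162 with Armi WT and 85.2, 74.6 and 81.9 with KEE. The deltaSAM libraries were the highest, and Daed WT and KEE were the lower groups, with a difference of -2.88 ± 0.14. Rab4, for a recycling GTPase, had -2.16 ± 0.13. Of the adhesion, matrix and polarity genes 10 of 23 were higher and 7 lower (median 0.14), or 14 and 5 uncentred, with l(2)gl, a polarity protein, and Ilk, an integrin-linked kinase at -1.61 ± 0.11, among the lower ones.

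Signalling and metabolic lists held members in both directions. Of the EGFR, Ras, insulin and TOR genes 9 of 23 were higher and 3 lower (median 0.23), or 16 and 2 uncentred, with aop, the ETS repressor Yan, at 1.48 ± 0.13 and Akt at 1.57 ± 0.15. Of the Hedgehog, Wnt and JAK-STAT genes 7 of 18 were higher and 5 lower (median -0.09), or 8 and 2 uncentred, with the Wnt receptor gene fz2 at 1.67 ± 0.16 and Stat92E at -1.09 ± 0.12. Of the glycolysis genes 3 of 9 were higher and 3 lower (median 0.27), or 6 and 2 uncentred, with Eno, for enolase, at 1.02 ± 0.11 and Pgi at -1.42 ± 0.18. Of the mitochondrial outer membrane genes 2 of 7 were higher and 1 lower (median 0.27), or 4 and 0 uncentred, with porin, the voltage-dependent anion channel, at 1.65 ± 0.13 and Drp1, which divides mitochondria, at 0.92 ± 0.21. Of the nuclear oxidative phosphorylation genes 8 of 30 were higher and 1 lower (median 0.47), or 18 and 0 uncentred, and of the mitochondrial ribosomal protein genes 2 of 9 were higher and 1 lower (median 0.35), or 4 and 0 uncentred. With centring, the higher share of neither list exceeded the 29.0% of all tested genes. On uncentred RPM the medians of the Hedgehog, Wnt and JAK-STAT list and of the clathrin list turned positive, and the median of all tested genes was then 0.48.

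**Figure D4:**
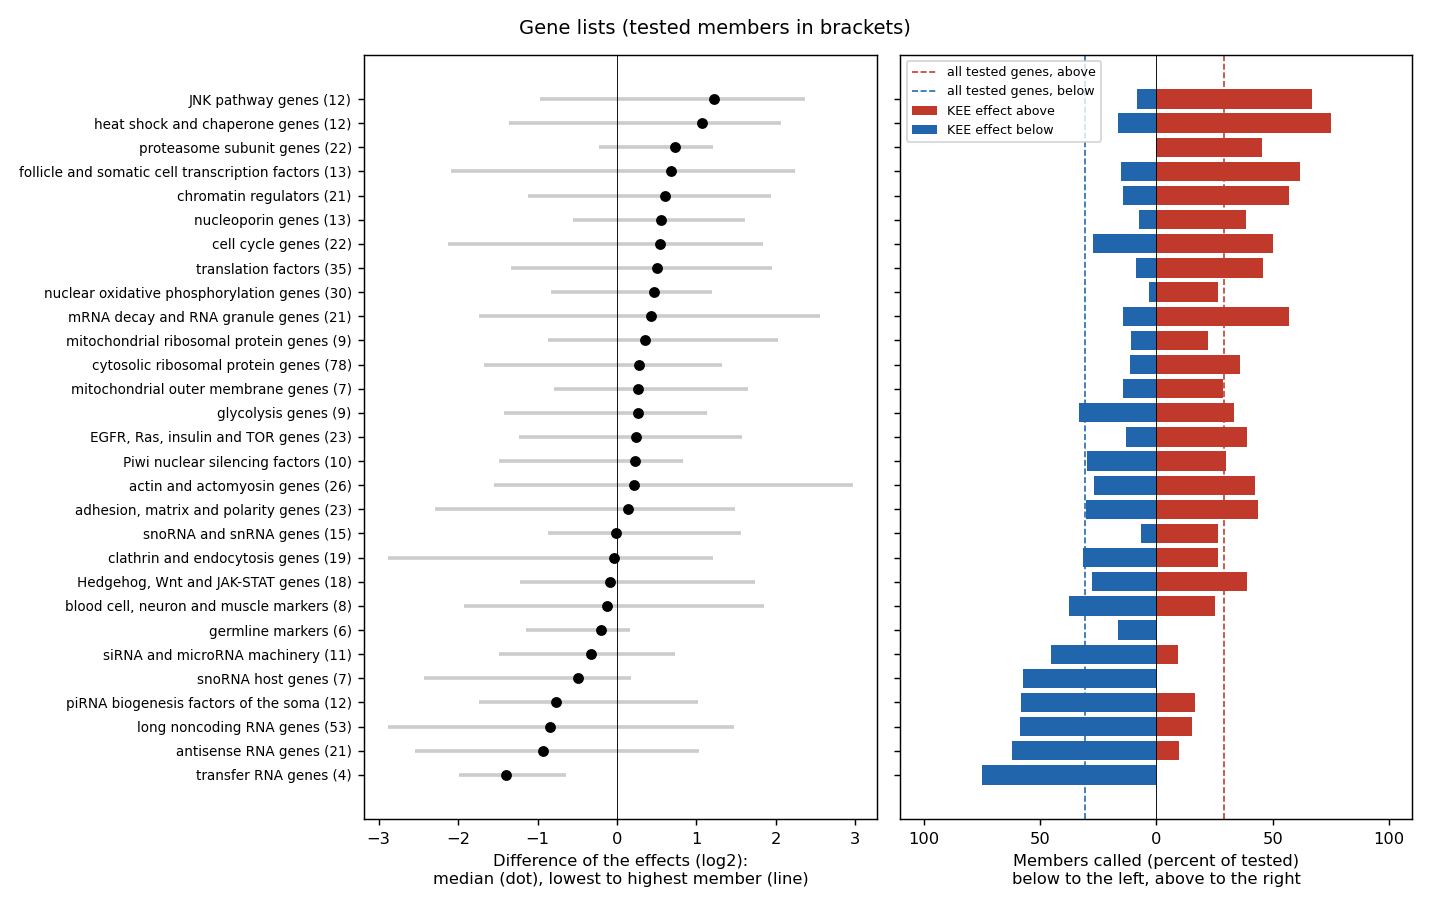
Difference of the effects by gene list, as the median and the lowest and highest member (left, log2) and as the percent of tested members called above or below (right), with dashed lines at 29.0% and 30.8% for all tested genes. The JNK list lies at the top with a median of 1.22 and the transfer RNA list, with only 4 tested members near the filter limit, at the bottom with -1.39.

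Long noncoding and antisense RNA genes were lower more often than the background, while snoRNA and snRNA genes were not. Of the long noncoding RNA genes 8 of 53 were higher and 31 lower (median -0.85), or 11 and 17 uncentred, and of the antisense RNA genes 2 of 21 were higher and 13 lower (median -0.94), or 4 and 10 uncentred. Uncentred, both medians stayed negative at -0.39 and -0.48. Long noncoding RNAs, flam included, held 6.67 ± 0.419% of gene reads with Daed WT (SD, n = 3), 4.698 ± 0.344% with deltaSAM, 4.22 ± 0.475% with Armi WT and 1.72 ± 0.0772% with KEE. Most of this share was flam. Its mean was 27237 RPM with Daed WT and 8702 RPM with KEE, where the whole list summed to 30528 to 33585 and 12353 to 13346 RPM. The antisense RNA asRNA:CR44030 had a difference of -2.43 ± 0.19 and lncRNA:CR46064 -1.54 ± 0.15. Each of them overlaps 1 other annotated gene. Host genes of small nucleolar RNAs (snoRNAs) had 0 higher and 4 lower of 7 (median -0.49), but 2 higher and 2 lower on uncentred RPM (median -0.03). Their leading member Uhg3 (2L:20647533-20648848) gave 451, 469 and 471 RPM with Daed WT, 1060.3, 998 and 1118 with deltaSAM, 386, 409 and 369 with Armi WT and 217, 237 and 222 with KEE. The deltaSAM libraries were the highest and KEE the lowest, a difference of -2.43 ± 0.11, and its span overlaps 3 other annotated genes. Of the snoRNA and snRNA genes 4 of 15 were higher and 1 lower (median -0.01), or 6 and 0 uncentred, with snRNA:U7 at 1.56 ± 0.33, or 0.87 with a pseudocount of 10, and snRNA:7SKa at 0.82 ± 0.18. Of the 295 transfer RNA genes only 4 were tested, of which 3 were lower. They are copies of near-identical sequence, so which copy gave the reads is uncertain. For tRNA:Ser-CGA-1-3 the mean with deltaSAM was 16.5 RPM against 3.94 to 7.299 in the other groups. Only its deltaSAM mean exceeded the filter limit of 10 RPM, so the filter itself favoured a lower difference for this gene. The 4 tested genes had a median level of 7.78 RPM, below that limit, and their lower calls are no evidence about transfer RNA genes.

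Markers of other cell types were also measured. The follicle and somatic markers tj and zfh1 were abundant in all 12 libraries, at 7401 to 18054 and 389 to 3417 RPM. The follicle markers eya, ct and Fas3 were less abundant. They gave 27.4 to 86.7 RPM for eya over all libraries, 8.59 to 16.7 RPM outside KEE against 87.6 to 98.1 with KEE for ct and 2.35 to 22.7 RPM outside KEE against 82.2 to 101 with KEE for Fas3. The germline genes vas, bam and AGO3 gave 0 to 4.97, 0.428 to 3.53 and 1.43 to 6.79 RPM, and osk and aub 2.12 to 12.7 and 4.005 to 9.39 RPM. Of 19 germline markers 18 were in the table and 6 were tested, with no member called higher and 1 lower, namely pgc at -1.15 ± 0.16, and a median of -0.20. Their summed level was 596 to 662 RPM with Daed WT, 443 to 509.7 with deltaSAM, 626 to 661 with Armi WT and 484 to 524 with KEE. The 22 blood cell, neuron and muscle markers summed to 1916 to 1937, 2333 to 2757, 2586 to 2949 and 2915 to 2973 RPM in the same order, with 8 tested, 2 higher and 3 lower (median -0.12). Of their defining genes, Hml of blood cells and Syt1 of neurons gave at most 0.522 and 0.552 RPM, nSyb of neurons and Mhc of muscle at most 1.89 and 4.25 RPM. The blood cell genes Pxn and srp gave 2.76 to 11.6 and 9.42 to 21.8 RPM, and the muscle gene Mef2 gave 40.8 to 73.99 RPM. The neuronal gene elav was abundant in all groups, with 353 to 377 RPM with Daed WT, 574 to 630.00 with deltaSAM, 444 to 499 with Armi WT and 1066 to 1143 with KEE, and its difference of 0.04 ± 0.11 was not called. Called members were futsch (1.85 ± 0.31) and ush (1.52 ± 0.24) on the higher side and crq (-1.93 ± 0.17), sls (-1.23 ± 0.13) and Mef2 (-0.74 ± 0.18) on the lower. The medians of these marker lists were positive on uncentred RPM, at 0.26 and 0.33. The part of other cells in the result was not tested.

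Lower differences were more frequent among abundant genes. With tested genes in 5 equal groups by mean RPM, in the least abundant group 12.97% were called lower and 21.6% higher, and in the most abundant group 52.7% and 30.1%, with medians of 0.21 and -0.42. On uncentred RPM the medians were 0.66 and 0.04, so the sign in the most abundant group depended on the scaling. Genes of the least abundant group had mean levels of 4.25 to 13.3 RPM, around the filter limit of 10 RPM. Such a gene could pass the filter through 1 group where it was high. With a filter of 1 RPM, 1061 of all tested genes were higher and 1674 lower. Reads per gene grew with abundance too, and the parts of the filter and of depth in these shares were not tested. Of the 20 most abundant genes 2 were higher and 15 lower (median -1.18), among the top 50 the counts were 9 and 34, and among the top 100 they were 21 and 67. Lower ones included Myc at -1.23 ± 0.13, brat, for a TRIM-NHL regulator of translation, at -1.74 ± 0.14, the importin gene msk at -1.16 ± 0.16 and CG6700 at -1.53 ± 0.11. The 2 higher ones were Vha16-1, for a subunit of the vacuolar proton pump, at 1.21 ± 0.13 and Larp4B at 0.42 ± 0.10. These genes were picked by their mean level over all libraries, after the values had been seen.

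The spread of reads over genes differed too. The same 10 genes, the most abundant by mean RPM over all 12 libraries, were followed in every library. Together they held 14.2 ± 0.239% of gene reads with Daed WT (SD, n = 3), 14.8 ± 0.203% with deltaSAM, 12.2 ± 0.306% with Armi WT and 6.46 ± 0.0849% with KEE. The difference of the effects was -0.97 on the log2 scale (exact permutation p = 0.005). Most of the libraries that set this list were not KEE libraries, so the list favoured a low share with KEE. It left out Vha16-1, at a mean of 6622 RPM with KEE, and held CG11360, at 1432 RPM with KEE. The number of genes that held 50% of gene reads was 184 ± 0.577, 162 ± 3, 194 ± 4.16 and 251 ± 3.61 in the same order, more than in WT with KEE and fewer with deltaSAM, a difference of 0.55 (exact permutation p = 0.005). The two-sided p came from the 400 arrangements of labels within both experiments, of which it is the smallest possible value. Its null is no effect in either experiment, so it does not alone show that the effects differ. The gene-assigned part of each library rose with both variants, from 50.2 ± 0.813 to 58.04 ± 0.598% and from 63.4 ± 1.32 to 79.5 ± 0.251%. The log2 effects were 0.33 with KEE and 0.21 with deltaSAM. Their difference was 0.12, or 0.10 to 0.13 with each library left out in turn. Its exact permutation p was 0.565, but shuffling labels mixed both effects into the reference values. This p therefore cannot judge whether the effects differ.

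Longer genes were more often higher. Genes in the shortest of 5 equal groups by annotated span, up to 2061 bases, were called higher at 16.5% and lower at 31.4%, with a median difference of -0.18. Genes in the longest group, from 12057 bases, were called higher at 41.98% and lower at 25.2%, with a median of 0.24. Genes longer than the median span had the larger share of higher calls within each of the 5 abundance groups, from 29.96% against 18.1% in the lowest to 34.1% against 18.01% in the highest. The median KEE effect went from -0.19 in the shortest to 0.30 in the longest group, and the median deltaSAM effect from -0.02 to 0.03. On uncentred RPM the medians of the shortest and longest groups were 0.28 and 0.70, so the sign of the shortest group depended on the scaling. The grouping was chosen after values had been seen and carries no test.

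Genes of chromosome 4, the small and largely heterochromatic chromosome of Drosophila, were lower as a group. Of its 109 deposited genes, 57 were tested, of which 6 were called higher and 34 lower (59.6% against 30.8% of all tested genes), with a median difference of -1.01. Its genes summed to 17182 ± 186 RPM with Daed WT (SD, n = 3), 19032 ± 94.4 with deltaSAM, 21803 ± 907 with Armi WT and 14688 ± 108 with KEE. KEE lowered 33 of the 57 and raised 4, and deltaSAM raised 22 and lowered 10. The gene PlexA, for the semaphorin receptor Plexin A, gave 3079, 3069 and 2901 RPM with Daed WT, 4064, 3966 and 4148 with deltaSAM, 3600.4, 3607 and 3205 with Armi WT and 1715, 1743 and 1726 with KEE. The deltaSAM libraries were the highest and KEE the lowest, and the difference was -1.89 ± 0.10. The gene CG11360 gave 3778, 3793 and 3642 RPM with Daed WT, 4077, 4124 and 3884 with deltaSAM, 3209, 3229.6 and 2933 with Armi WT and 1416, 1437 and 1445 with KEE, and only its KEE libraries were far below the others, with a difference of -1.69 ± 0.10. Also lower were anne (-1.69 ± 0.10), Mitf, for a bHLH factor of lysosome genes (-1.85 ± 0.10), and the zinc transporter gene Zip102B (-1.43 ± 0.10). Higher ones included unc-13, for a factor of synaptic vesicle priming (0.61 ± 0.10), and ci, for the Hedgehog effector (0.36 ± 0.11). Chromosome 4 genes were more abundant than most, and within the most abundant group 20 of 23 were lower (86.96%) against 51.8% on the other chromosomes. In the next most abundant group 5 of 12 were lower (41.7%) against 38.7%, and in the middle group 4 of 11 (36.4%) against 29.4%. The groups below held 2 lower of 5 against 20.0%, and 3 lower of 6 against 12.6%. By share of lower calls the lean was thus clear in the most abundant group and small in the next and middle groups. The median difference of chromosome 4 lay below that of the other chromosomes in every group. From more to less abundant it was -1.25, -0.33, -0.47, -0.24 and -0.81, against -0.39, -0.10, 0.05, 0.24 and 0.21. All groups but the most abundant held only 5 to 12 genes of chromosome 4. Uncentred, 30 of the 57 were lower, and without both replicates 3 named above 38 were. The X chromosome leaned the other way, with 36.5% higher and 27.2% lower, against 29.0% and 30.8% of all tested genes. Within the most abundant group this lean was absent, with 30.8% higher on X against 30.5% on the autosomes other than chromosome 4. In the groups below, from more to less abundant, the higher shares were 41.6%, 43.1%, 44.1% and 22.7% on X. Those of the autosomes were 29.2%, 29.2%, 27.4% and 21.2%. The chromosomes were singled out after the values had been seen, and no test was made on them.

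**Figure D5:**
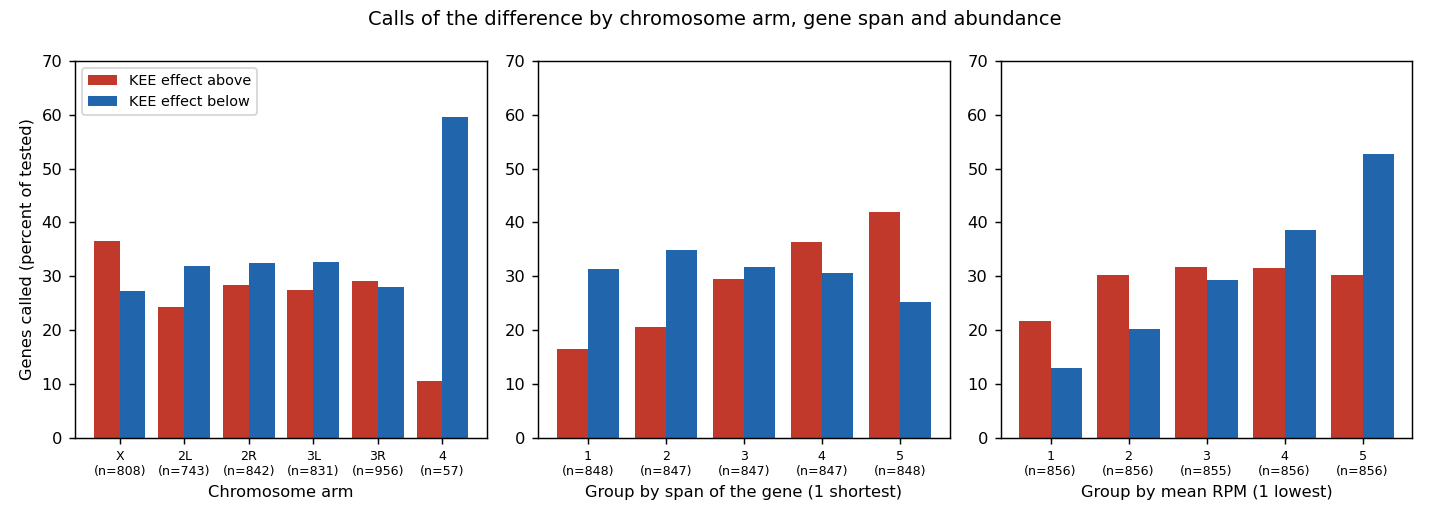
Percent of tested genes called above (red) or below (blue), by chromosome arm (left), by 5 equal groups of gene span (middle) and of mean RPM (right), with the number of genes under each pair of bars. Chromosome 4 stands out with 59.6% below, higher calls grow from 16.5% to 41.98% with span, and lower calls grow from 12.97% to 52.7% with abundance.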

How the data were processed

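Small RNAs bound to Piwi were sequenced from 12 OSC libraries. The authors deposited a gene table in RPM, the reads of each gene scaled to the reads of its library, per the file headers. Per the submitters' processing notes, the tools were STAR and HTSeq and the builds BDGP6 and dm6; versions and the strand setting are not given in the sources used here. The deposited transposon table was not used. All RPM values (100%) were whole multiples of 1 read within 0.01, which gave the library reads. A list of gene names gave a symbol for 99.3% of gene identifiers, and RefSeq's annotation for Release 6 (dm6) gave coordinates by symbol. Of the 99 named genes, 50 overlap another annotated gene.

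The main test was limma-trend on log2(RPM + 1), each library centred on its median tested gene, with all 12 libraries in 1 fit (8 residual degrees of freedom), genes of at least 10 RPM in at least 3 libraries, and Benjamini-Hochberg adjusted p under 0.05 over the 4279 tested genes. These carried 97.5 to 98.4% of gene reads. The pseudocount understates the changes of low genes. Log2 values are given with their standard error, levels in RPM with the SD where a mean is printed with an error.

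The members, gene lists and rules were chosen with earlier results of these data known. Named genes were the 3 largest differences in each direction of each class of calls, with at least 50 RPM in the highest group, then armi, daed, flam, tj, piwi and zuc, the 2 list members of lowest p, and the 6 most abundant genes with like effects. Genes named for abundance or for chromosome 4 were chosen after their values were seen. Same-numbered replicates of a pair of groups did not deviate together (correlations of -0.03 to 0.08), so numbers pair no samples.

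Alternatives changed the pseudocount (0.1 and 10), the filter (1 RPM, 50 RPM or none), the scaling (uncentred RPM, the gene-table total, the upper set of genes by mean RPM, quantiles), removed structural RNA genes, added a replicate block or library weights, used edgeR with TMM factors or DESeq2 on the recovered reads, thinned all libraries to 1396369 reads, or left out each library in turn. Leaving out replicate 3 of Daed deltaSAM together with that of Armi WT was added after seeing the data. The fit was tested on simulated data with planted changes. Python 3.11.15 and, under R 4.3.3, DESeq2 1.42.0, edgeR 4.0.16 and limma 3.58.1 were used.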

Additional observations from a re-analysis of the deposited data

Results flagged for a closer look

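The results below differ between the experiments by the test of the difference itself, the contrast of both effects in 1 limma fit with Benjamini-Hochberg adjustment over all tested genes. That contrast was called higher at 1243 genes and lower at 1317. Opposite responses with KEE up and deltaSAM down led with neo (2.85 on the log2 scale), spen (2.57) and ImpL2 (2.56). Opposite responses with KEE down and deltaSAM up led with CG11141 (-3.75), CG17198 (-3.34) and CG17019 (-3.27). The helicase gene armi, the target of 1 of both knockdowns, was higher with KEE and lower with deltaSAM (1.02), with plasmid reads not told from endogenous ones. The genic piRNA source tj went the other way (-2.08), but was not called under quantile normalization. The gene piwi had a lower difference too (-1.73). It rose with deltaSAM, while its Armi WT and KEE libraries overlapped on RPM, so a fall with KEE was seen only relative to the median gene. Groups held 3 libraries each, so single libraries were not tested for standing apart gene by gene.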

How the results depend on the processing

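Of all 2560 called genes, 2109 kept their call on uncentred RPM, 2217 with the gene-table total, 2230 on thinned reads and 2507 with edgeR. Under quantile normalization 2364 kept it and 2 were called with the opposite sign. The named genes were mostly picked for large differences or low p in this same fit, so their calls were likely to hold. For 98 named genes under up to 28 alternatives, 2625 of 2729 values kept their call or stayed uncalled. Of the rest, 77 were no longer called, 24 became called and 3 became called with the opposite sign. Of 92 called genes, 83 were called under every alternative. Among the named genes the opposite sign was called for Syp alone, at 0.43 on uncentred RPM, 0.46 with quantile normalization and 0.31 with the gene-table total. Changes of sign without a call are not in this count. One was that of crol, whose difference of -0.23 was smaller in size than the 0.46 removed by centring. The counts moved with the scaling and with the filter. On uncentred RPM 2010 genes were higher and 866 lower, with 449 genes KEE up and deltaSAM down and 256 the reverse. With the gene-table total these opposite classes held 463 and 267 genes. A filter of 50 RPM, which tests fewer genes, left 828 lower genes and 295 with KEE down and deltaSAM up, a filter of 1 RPM left 135 with KEE up and deltaSAM down, and no filter left 148; for the last pair the cause was not tested. With each library left out in turn the higher genes numbered 1103 to 1293 and the lower genes 1233 to 1334, the opposite classes 192 to 260 and 424 to 481. The difference ranged from 0.54 to 0.57 for genes holding 50% of gene reads, from -0.99 to -0.96 for the part of the 10 most abundant genes, and from 0.10 to 0.13 for the gene-assigned part. The replicate block gave 1241 higher and 1326 lower genes, of which 2513 in all had the same call, and same-numbered samples did not correlate. edgeR gave 1219 and 1368 and DESeq2 1116 and 1278. Depth limits low genes, whose values rest on few reads, most of all in the shallower Daed libraries, so an uncalled difference there is not a like response.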

Other observations

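Besides chromosome 4, genes near the centromeric end of some large arms were lower than the rest of their arm. Within 3 to 6 Mb of the centromeric end of 2R, 2 of 41 tested genes were called higher and 25 lower, with a median difference of -0.64 against 0.01 beyond 9 Mb. On 3L, 6 of 40 genes in the same interval were higher and 19 lower (median -0.53 against 0.13 beyond 9 Mb). On 2L it held 21 higher and 33 lower of 85 genes (median -0.23 against -0.01 beyond 9 Mb). On 3R the interval held 22 higher and 28 lower of 89 genes (median 0.02), and on X 40 higher and 31 lower of 103 (median 0.20), so the lean was not shared by all arms. Over all 5 arms, 25.4% of the 358 genes in this interval were higher and 38.0% lower, against 29.0% and 30.8% of all tested genes. Of the 132 genes within 3 Mb, 22.0% were higher and 35.6% lower. Genes in the 3 to 6 Mb interval had a median level of 51.7 RPM against 34.1 RPM beyond 9 Mb. Lower calls grew with abundance, and the part of abundance in these shares was not tested. The intervals were chosen after the values had been seen, and no test was made on them.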
